A study of Danio rerio with 4 samples.

Results

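Connexin genes were followed here through the sorted trunk cells of 26 hpf zebrafish embryos. The members were the genes whose symbol in the deposited gene list begins with cx and a number, or with gja, gjb, gjc or gjd and a number, and which had at least 20 UMIs (unique molecular identifiers, the counted RNA molecules) over all 4 libraries. The letter case of the symbol was ignored, because GJD4 is written in capitals. Of 36351 listed genes 34 carried such a symbol and 24 reached the minimum. The other 10 were cx52.7 with 17 UMIs, cx34.5 and cx52.6 with 13 each, gja8b and cx32.3 with 7 each, cx36.7 with 4, cx23 and cx47.1 with 3 each, cx28.9 with 2 and cx31.7 with 0. RefSeq (assembly GRCz12tu) held 22 of the 24 members and gives current symbols for those listed under an older name, among them gja1b for cx43, gjb8 for cx30.3, gja4 for cx39.4, gjc4b for cx43.4, gja13.2 for cx32.2, gja2 for cx39.9 and gjb1a for cx27.5. No RefSeq entry matched cx28.1 or cx40.8.

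Connexins span the cell membrane and assemble into hemichannels. Hemichannels of adjoining cells dock to form a gap junction, which lets ions and small molecules pass directly from one cytoplasm to the next. In mammalian vessels Gja1, Gja4 and Gja5 couple endothelial cells, and Gja5 marks arterial endothelium. In zebrafish, mutations of cx43 shorten the fins, and mutations of gja5b or cx39.4 alter the pigment stripes of the skin.

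The embryos all carried the kdrl:GFP transgene, in which the promoter of the vascular receptor gene kdrl drives GFP, and GFP-positive cells of the trunk, including the region of the aorta, were sorted for 3′ single-cell RNA sequencing. WT embryos had no further change. Embryos of the miR-128 mutant group (miR-128 Δ/Δ) lacked expression of both genes that encode this microRNA. For the csnk1a1 g3UTR and jag1b g3UTR groups, WT embryos were injected at the 1-cell stage with Cas9 mRNA and a guide RNA against the miR-128 responsive element in the 3′UTR of csnk1a1 or jag1b, so that the edited alleles can differ between the cells and embryos of a library. Each group was 1 library, pooled from many embryos per the study's methods, which leaves no replicate of any genotype. Values are listed below library by library, with WT first, then the miR-128 mutant, then csnk1a1 g3UTR and last jag1b g3UTR.

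After filtering 12206, 9241, 9054 and 11087 cells were kept, 41588 in all. Their median depth was 10518, 9611, 7724.5 and 5723 UMIs. Between 23 and 51 cell barcodes occurred in both libraries of a pair. Cells were assigned to classes by marker genes that held no connexin, and the class names mean arterial-like, venous-like and so on. Of the kept cells 34341 were endothelial (EC), namely 8961 arterial, 20013 venous and lymphatic, 1988 tip, 617 haemogenic and 2762 other EC. The remaining classes included 1432 nascent haematopoietic stem and progenitor cells (nHSPCs), 823 erythroid and 1177 myeloid cells, and 513 to 793 cells per library outside endothelium and blood. The sum of the 10 endothelial markers was 6588 to 11993 CPM (UMIs in proportion to all UMIs of the same class and library) in endothelial cells and 373 to 998 CPM in the cells outside endothelium and blood. The arterial and venous classes are ranges of a continuous score, with 1138 and 1379 of the 34341 EC within 0.1 of the arterial and the venous limit. When cells were clustered with connexin genes left out, 73.3% of the venous class but 44.6% of the arterial and 19.7% of the tip class fell in clusters of the same name. For nHSPCs it was 64.2%, and no cluster bore the haemogenic name. All levels are CPM, taken from the total UMIs of a class in 1 library. Since 3′ UMIs count molecules and were not scaled by length, the shares of connexin UMIs are shares of counted 3′ ends, and near-identical copies among the connexins may have split their reads.

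Expression of the family was divided by tissue. Of the 24 members, 8 had their highest mean level in an endothelial class, 7 in epidermis, 3 in myeloid cells, 2 each in skeletal muscle, neural cells and notochord, and 16 were highest in the same class in all 4 libraries. Some placements rested on few UMIs in the named class, such as cx52.9 in notochord (2), cx40.8 and gja8a in haemogenic EC (3 and 9), and cx30.9 and cx28.6 in epidermis (6 each). cx55.5 was placed in epidermis on 13 UMIs and was highest there in 1 library, whereas EC held 666 of its UMIs. Endothelial cells held 79234 of the 90870 connexin UMIs counted over all 43568 barcodes before filtering, or 87.2%. EC were also 34341 of the 41588 kept cells, so this share is not a measure of enrichment. Within EC, 8 genes accounted for 98.4% of the connexin UMIs. These were cx43, cx30.3, gja5a, cx39.4, gja5b, cx43.4, cx55.5 and GJD4. The summed connexin level in EC was 271.7, 249.7, 254.6 and 276.2 CPM. It was 424 to 527 CPM in notochord, 225 to 365 in neural cells, 57.9 to 79.0 in nHSPCs and 18.2 to 46.2 in erythroid cells. Endothelium was thus not the class with the highest connexin level.

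**Figure D1:**
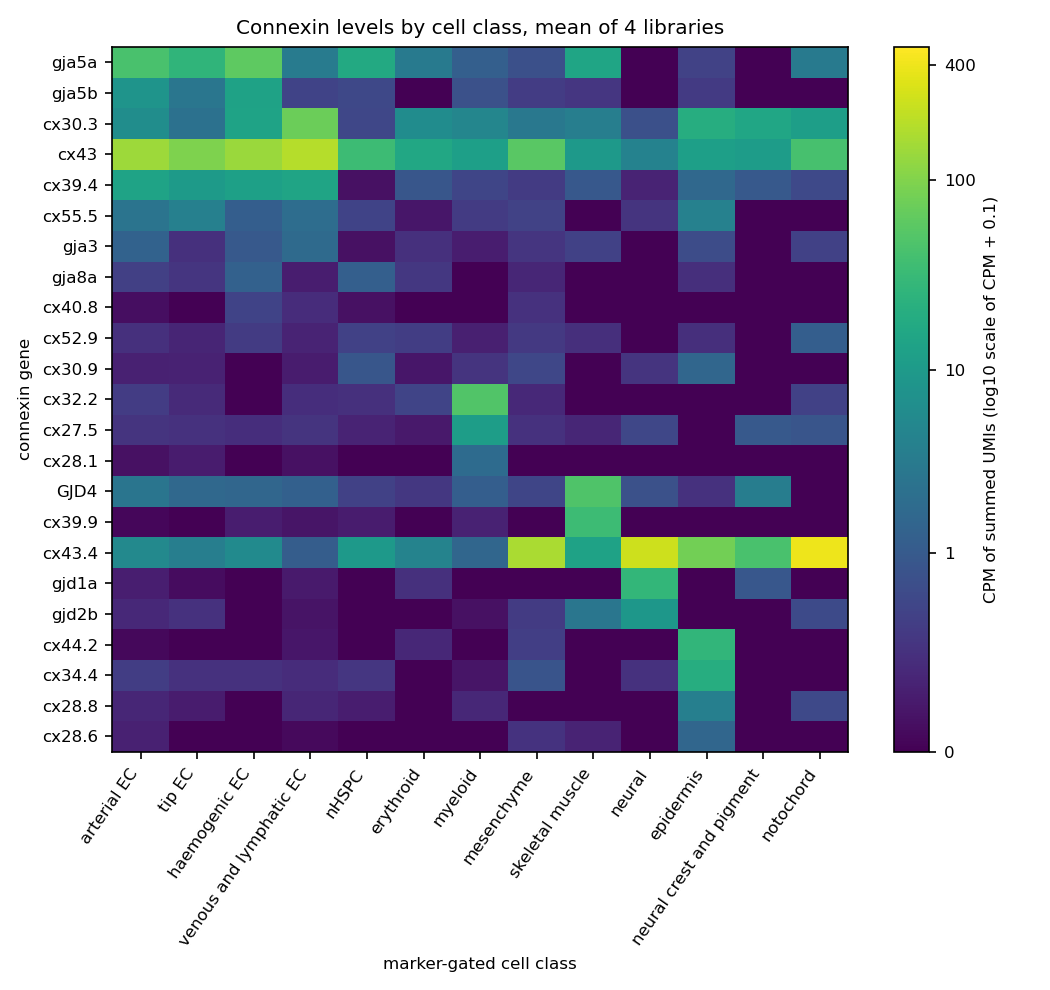
Mean level over the 4 libraries of the connexin genes described (rows) in each cell class (columns), with colour giving CPM on a log scale after adding 0.1. The bright cells move from the vascular genes cx43, cx30.3, gja5a and gja5b in the endothelial columns to cx43.4 in notochord, neural cells and mesenchyme, and to cx32.2 in myeloid cells.

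The makeup of the connexin UMIs differed between the vascular classes. cx43 gave a median over libraries of 61.8% of them in arterial EC, 63.5% in venous and lymphatic EC, 64.3% in tip EC, 54.9% in haemogenic EC and 50.5% in nHSPCs. The next gene was gja5a in arterial EC, with a median of 18.8% and a range of 17.8% to 20.7%. It was cx30.3 in venous and lymphatic EC, with a median of 26.3% but a wide range of 14.7% to 32.9%. Outside vessels and blood cx43.4 had the highest median in most classes, such as 86.8% in notochord, 86.3% in neural cells and 72.2% in mesenchyme. In skeletal muscle GJD4 led instead, with 35.5% against 10.8% for cx43.4. In myeloid cells cx32.2 led with 55.4%, and in erythroid cells cx43 with 50.7%.

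**Figure D2:**
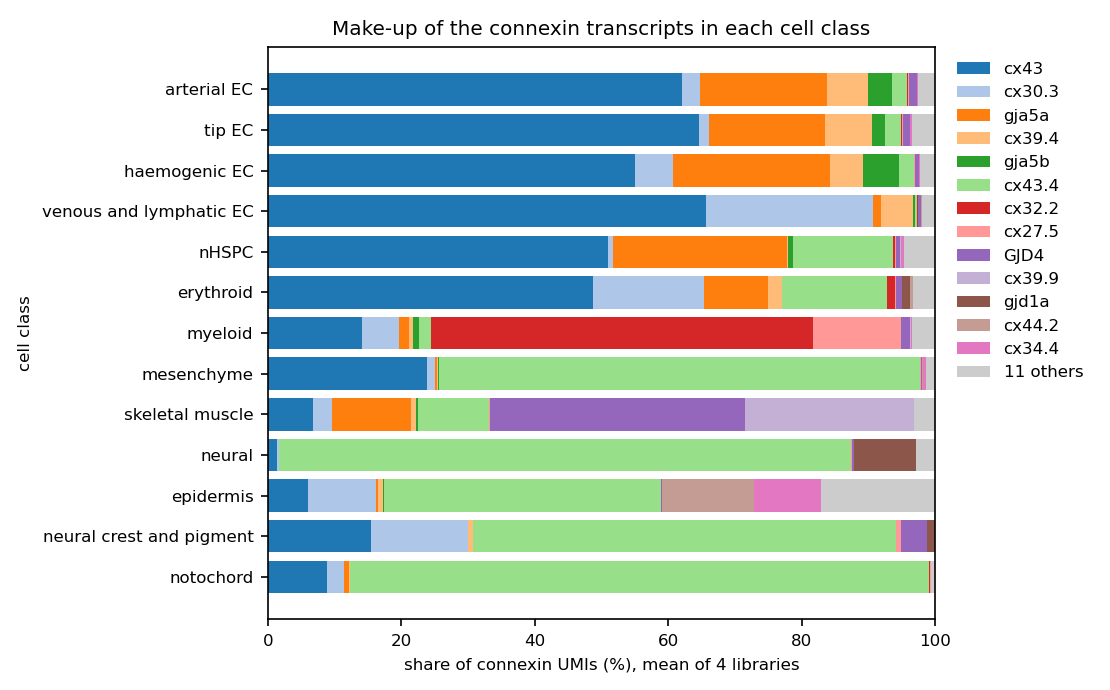
Share of the connexin UMIs (horizontal axis, percent, mean of the 4 libraries) given by each gene, with 1 stacked bar for each cell class. cx43 is the largest segment in the vascular classes, with cx30.3 beside it in venous and lymphatic EC and gja5a in arterial EC, and cx43.4 fills most of the bars of notochord, neural cells and mesenchyme.

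Endothelial cells were first set against the cells outside endothelium and blood, within each library. A gene was called where edgeR's quasi-likelihood test, with the library as a block, gave a Benjamini-Hochberg adjusted p under 0.05 over all genes tested and the change was at least 2-fold. The replicate spread in these tests is that between 4 libraries of different genotype. Of 17 connexins tested 7 were called higher and 8 lower in EC, where 17.6% of all 18792 genes tested were called higher and 22.3% lower. Of the 17, 8 passed the filter on low counts through 1 of the 2 classes only, among them cx39.4, gja5b, gja3, cx39.9, cx44.2 and gjd1a. For these the filter could favour the direction, although cx27.5, let in through EC only, had a lower estimate in EC (log2 −0.29). Calls of members that passed through 1 class only are not read as support, here or in the later contrasts. Among the other 9 tested, 4 were called higher and 5 lower.

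The 7 genes higher in EC were cx39.4, gja5b, cx30.3, cx43, gja3, gja5a and cx55.5. cx39.4, the zebrafish counterpart of mammalian Gja4, stood at 12.3, 15.9, 13.0 and 14.7 CPM in EC and at 0.377, 0.505, 1.13 and 0.726 CPM outside. This was a 21.5-fold difference (log2 4.43 ± 0.24 SE), whose call is not read as support because cx39.4 passed the filter through EC only. cx43, the most widespread vertebrate connexin, stood at 165.7, 177.3, 166.9 and 170.8 CPM in EC and at 27.8, 31.0, 23.2 and 27.6 CPM outside, a 6.48-fold difference (adjusted p = 2.5e-08 by edgeR). No library overlapped between the classes for either gene, and the EC levels of cx43 lay within a narrow range. gja3, a lens connexin in mammals, was low throughout, with 1.37, 1.59, 1.57 and 1.84 CPM in EC against 0.126, 0.673, 0 and 0.363 CPM outside (5.97-fold). Its call is likewise not read as support. cx55.5 reached 2.003, 2.54, 1.69 and 2.76 CPM in EC against 0.126, 0.168, 0.645 and 1.996 CPM outside (3.59-fold, adjusted p = 0.013 by edgeR). Its level outside EC in the jag1b g3UTR library was close to the WT level in EC, and that library also held 11.8 CPM in epidermis.

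Of the genes lower in EC, cx43.4 had by far the highest level outside, at 164, 184, 142 and 121 CPM against 2.29, 2.69, 2.997 and 2.996 CPM in EC (53.7-fold lower, adjusted p = 1.8e-08 by edgeR). Others among the 8 were cx39.9, cx44.2, gjd1a, gjd2b, cx34.4 and GJD4, with log2 differences from −7.30 to −2.75, and they are described with their own tissues below. cx27.5 (log2 −0.29, adjusted p = 0.75) and gja8a (log2 1.42 ± 0.89 SE, adjusted p = 0.19) did not pass the edgeR test. Endothelial markers were measurable in the outside cells at the levels given above, and the part of this in the smaller differences was not tested.

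Arterial and venous endothelium carried different connexins. In arterial against venous and lymphatic EC, 10 connexins were tested, of which gja5a, gja5b and cx43.4 were called higher and cx30.3 lower. Over all 16737 genes 9.11% were called higher and 9.57% lower, and the connexin median was 0.12 on the log2 scale against 0.01 for all genes.

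gja5a and gja5b are both counterparts of mammalian Gja5. gja5a stood at 37.8, 42.3, 47.8 and 47.1 CPM in arterial EC and at 1.8, 2.8, 3.4 and 5.5 CPM in venous and lymphatic EC, which is 13.7-fold apart (log2 3.77 ± 0.17 SE, adjusted p = 2.9e-08 by edgeR). gja5b gave fewer UMIs, at 9.50, 9.91, 6.14 and 6.85 CPM in arterial EC against 0.303, 0.448, 0.542 and 0.516 CPM in venous and lymphatic EC (18.8-fold, log2 4.23 ± 0.21 SE, adjusted p = 6.4e-08 by edgeR). Arterial and venous levels of both genes were separate in every library. Among the arterial values gja5a was lowest in the WT library and gja5b lowest in the csnk1a1 g3UTR library. cx43.4 was higher in arterial EC by log2 2.23 ± 0.15 SE (4.70-fold, adjusted p = 6.6e-07 by edgeR), but only at 4.5, 5.8, 5.8 and 5.3 CPM against 0.8, 1.0, 1.2 and 1.5 CPM.

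cx30.3, a member of the gjb subfamily, was the gene called on the venous side. It stood at 103.8, 41.3, 70.5 and 81.9 CPM in venous and lymphatic EC and at 8.0, 3.5, 5.7 and 8.1 CPM in arterial EC. The 12.2-fold difference (log2 −3.61 ± 0.07 SE, adjusted p = 4.8e-10 by edgeR) had the same direction in all 4 libraries, and no venous value overlapped an arterial one, although the venous level varied more between libraries than that of cx43.

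**Figure D3:**
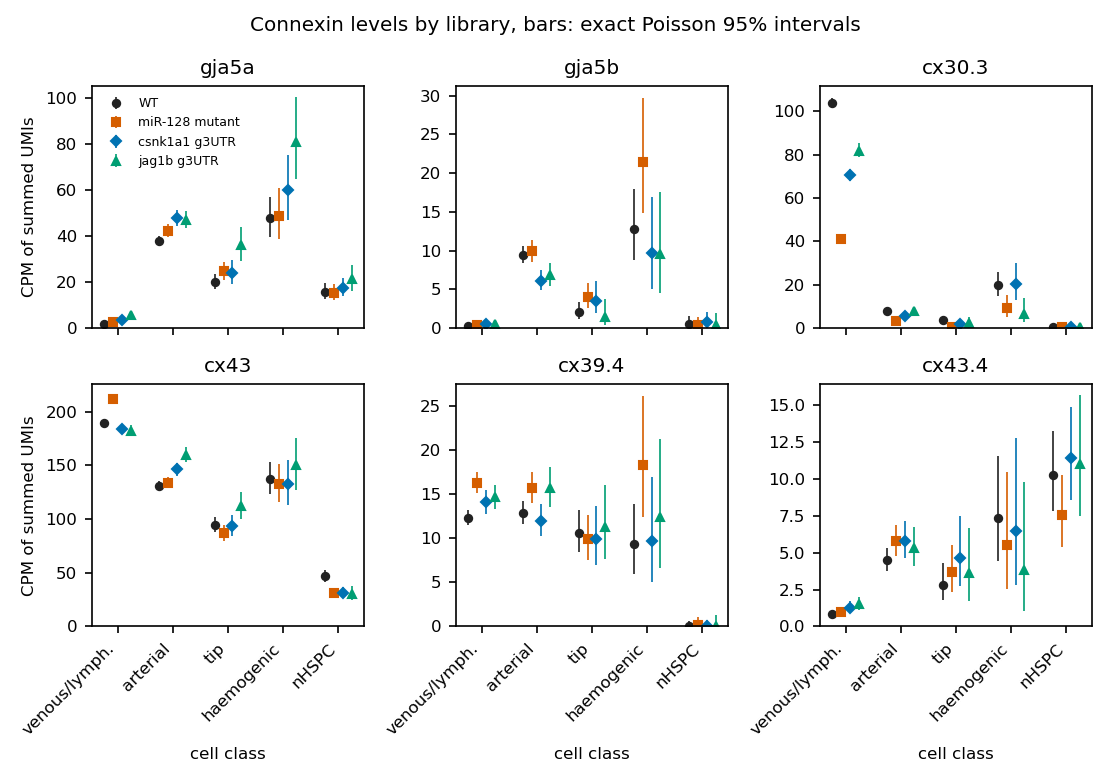
CPM (vertical axes, linear, each with its own range) of 6 connexins in venous and lymphatic, arterial, tip and haemogenic EC and in nHSPCs, with 1 point per library and bars for 95% exact Poisson intervals of counting error. gja5a and gja5b points lie highest in arterial and haemogenic EC and cx30.3 points in venous and lymphatic EC, while the cx43 points of the EC classes lie between 86.7 and 211.6 CPM.

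cx43 and cx39.4 were shared by arteries and veins. cx43 had 130.9, 133.6, 146.3 and 160.0 CPM in arterial EC and 189.6, 211.6, 184.0 and 182.3 CPM in venous and lymphatic EC. The venous level was above the arterial one in all 4 libraries, but by 1.38-fold (log2 −0.47 ± 0.07 SE, adjusted p = 0.00027 by edgeR), short of the 2-fold limit. cx39.4 had 12.9, 15.7, 12.0 and 15.7 CPM in arterial and 12.3, 16.3, 14.1 and 14.7 CPM in venous and lymphatic EC, with overlapping values (log2 −0.06 ± 0.07 SE, adjusted p = 0.50). GJD4 (log2 0.93 ± 0.17 SE) and gja3 (log2 −0.48) had adjusted p of 0.00073 and 0.026 without reaching 2-fold, and cx55.5 did not pass the threshold.

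The shares of cells with a UMI gave the same picture. To compare libraries of different depth, each cell was thinned to 3000 UMIs, which left out 62 to 426 arterial and 177 to 974 venous cells per library. A cx43 UMI was then found in 28.799%, 26.7%, 32.4% and 32.7% of arterial and in 41.1%, 44.3%, 41.5% and 41.6% of venous and lymphatic EC. The shares before thinning were 56.2%, 53.2%, 51.7% and 47.0% in arterial EC and 76.2%, 78.1%, 67.1% and 57.4% in venous EC, so in arterial EC their order between libraries followed depth. gja5a was found in 10.4%, 11.9%, 11.9% and 12.1% of thinned arterial EC and in 0.465%, 0.775%, 0.813% and 1.34% of thinned venous EC (unthinned 27.498%, 29.1%, 25.7% and 20.4%, and 1.65%, 2.30%, 2.32% and 2.81%). cx30.3 was found in 24.0%, 9.92%, 16.6% and 19.1% of thinned venous EC and in 2.51%, 0.980%, 1.44% and 2.53% of thinned arterial EC (unthinned 47.8%, 23.0%, 30.4% and 29.4%, and 6.79%, 2.996%, 3.61% and 3.65%).

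Neural cells served as the reference for free RNA. Their endothelial markers summed to 254 CPM over all libraries, the lowest of the classes, beside 576 CPM in mesenchyme and 615 CPM in skeletal muscle. They can therefore understate the free RNA of other classes. Their median depth was 8815.5, 7971, 6057 and 4842 UMIs, beside 9990.5, 8973, 7056 and 5299 in arterial EC and 10358.5, 9295.5, 7280.5 and 5758 in venous EC, and 11 to 24 of them per library were left out by the thinning. Among the thinned neural cells 0.82% to 1.67% had a cx43 UMI and none a gja5a or gja5b UMI, and the exact upper limits for 0 were 2.03% to 3.18%. A cx30.3 UMI was found in none of them in 3 libraries and in 0.826% in the jag1b g3UTR library. The gja5a share of venous EC lay within these limits, which are wide because they rest on 114 to 180 thinned neural cells per library. Before thinning, too, no neural cell had a gja5a UMI. Whether venous EC express gja5a was not tested.

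Detection of the main connexins in the same cell was then compared. Among thinned arterial EC a gja5a UMI was found in 10.6%, 10.8%, 11.9% and 12.1% of the cells with a cx43 UMI and in 10.4%, 12.3%, 11.8% and 12.1% of those without. Among thinned venous and lymphatic EC a cx30.3 UMI was found in 26.0%, 10.2%, 17.5% and 20.3% of the cells with a cx43 UMI and in 22.6%, 9.70%, 16.04% and 18.2% of those without, higher with cx43 in all 4 libraries. The cells of a library are not replicates, and these shares were not tested.

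Tip EC, the leading cells of vascular sprouts, had less of several connexins than arterial EC. Of 9 connexins tested 0 were called higher and 3 lower, where 1.87% of all 14146 genes were called higher and 5.2% lower. The summed cycling markers moved with this contrast, at 757, 664, 809 and 951 CPM in tip EC against 428, 373, 528 and 618 CPM in arterial EC, and their part in the differences was not tested. gja5b stood at 2.05, 3.98, 3.57 and 1.46 CPM in tip EC, 3.04-fold below arterial EC (log2 −1.60 ± 0.20 SE, adjusted p = 4.4e-06 by edgeR). cx30.3 stood at 3.97, 0.636, 1.92 and 2.55 CPM, 2.65-fold below arterial EC (adjusted p = 3.2e-05 by edgeR), and gja3 at 0.128, 0.796, 0 and 0 CPM against 1.14, 1.22, 1.47 and 1.61 CPM (log2 −2.12 ± 0.58 SE, adjusted p = 0.0078 by edgeR). gja3 passed the count filter through arterial EC only, which can favour a lower value in tip EC, so its call is not read as support. cx30.3 reached the minimum in 1 tip sum and gja5b in 3, so the filter could favour their direction too. Without the library block in the fit, 1 of the 3 calls was left.

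cx43 stood at 94.7, 86.7, 93.6 and 111.9 CPM in tip EC and gja5a at 20.1, 24.7, 24.2 and 36.1 CPM. Both were below arterial EC in all 4 libraries, by log2 −0.56 ± 0.05 SE (adjusted p = 7.1e-08) and −0.78 ± 0.09 SE (adjusted p = 1.1e-06) in the edgeR test, under the 2-fold limit. cx55.5, at 2.31, 3.98, 3.30 and 6.20 CPM, was the tested member whose estimate was higher in tip EC (log2 0.54), and it did not pass the threshold (adjusted p = 0.072).

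Haemogenic EC, the endothelial cells that turn into blood stem cells, kept an arterial set of connexins. They were gated as EC without myb UMIs and with at least 2 of the 4 markers runx1, gata2b, gfi1aa and dnmt3bb.1. Against arterial EC 1 of 9 connexins was called higher and 0 lower, with 2.98% and 3.41% of all 13939 genes called higher and lower. gja5a stood at 47.8, 48.9, 59.9 and 81.2 CPM, above arterial EC in all 4 libraries but by log2 0.36 ± 0.10 SE (adjusted p = 0.011 by edgeR). gja5b stood at 12.8, 21.4, 9.72 and 9.55 CPM, likewise above arterial EC in each library (log2 0.65 ± 0.18 SE, adjusted p = 0.0091). cx43, at 137.6, 132.7, 132.8 and 149.9 CPM, lay among the arterial values (adjusted p = 0.37). cx39.4, at 9.30, 18.3, 9.70 and 12.4 CPM, varied more widely than in arterial EC and did not pass the threshold (adjusted p = 0.34).

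The gene called was cx30.3, at 19.8, 9.2, 20.2 and 6.7 CPM in haemogenic EC (log2 1.17 ± 0.22 SE, adjusted p = 0.00022 by edgeR, higher in 3 of 4 libraries). The venous marker list was also higher in this class, at 1989, 1773, 2030 and 2844 CPM against 1274, 1255, 1365 and 1880 CPM in arterial EC. The haemogenic gate did not use this list, but arterial EC were gated on the difference of arterial and venous scores. A lower venous list in arterial EC therefore follows from their gate, and no conclusion is drawn from it. In the haemogenic EC on the arterial side of the arterial limit, a subset defined after seeing the data, cx30.3 was at 5.76, 0.787, 3.43 and 0 CPM, from 11, 1, 3 and 0 UMIs, and the difference was −1.11 ± 0.38 SE (adjusted p = 0.024 by edgeR). The venous list stood at 1030.3, 1096, 946.7 and 1779 CPM in that subset (haemogenic EC, arterial side), which was cut on the same score difference. The call was also lost without the library block (adjusted p = 0.094) and when the cells marked by a doublet caller were left out (log2 0.80), and without the csnk1a1 g3UTR library (log2 0.97). The arterial-side cells held gja5a at 60.2, 61.4, 78.8 and 88.2 CPM, with differences from arterial EC of 0.67 ± 0.11 SE for gja5a (adjusted p = 3.3e-06) and 0.92 ± 0.21 SE for gja5b (adjusted p = 0.00054) in the edgeR test, under 2-fold.

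In nHSPCs, the blood stem and progenitor cells that emerge from haemogenic EC, cx43 and gja5a were lower than in haemogenic EC. Of 5 connexins tested 4 were called lower and 0 higher, with 21.8% and 18.2% of all 10851 genes called lower and higher. Of these, cx39.4 and gja5b passed the count filter through haemogenic EC only, so their direction was set by the filter, and 2 of the other 3 were called lower. cx43 stood at 46.8, 30.89, 30.94 and 30.28 CPM (3.82-fold below haemogenic EC, log2 −1.94 ± 0.12 SE, adjusted p = 5.4e-10 by edgeR). gja5a was still at 15.9, 15.3, 17.7 and 21.4 CPM (3.22-fold lower, log2 −1.69 ± 0.13 SE, adjusted p = 8.4e-09 by edgeR). gja5b stood at 0.531, 0.386, 0.831 and 0.356 CPM. cx39.4 was nearly absent, with 0, 1, 0 and 0 UMIs in 1432 nHSPCs. The edgeR calls of gja5b and cx39.4 are not read as support.

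Among the 5, cx43.4 was the one not lower, at 10.3, 7.53, 11.4 and 11.04 CPM in nHSPCs against 7.38, 5.50, 6.48 and 3.82 CPM in haemogenic EC (log2 0.74 ± 0.25 SE, adjusted p = 0.015, under 2-fold). The sum of the endothelial markers in nHSPCs was 502, 632, 778 and 1016 CPM, against 6855, 7214, 10826 and 13058 CPM in haemogenic EC, and the nHSPCs were deeper, with medians of 16873, 15684, 11229.5 and 8205 UMIs against 11166, 9745, 8182 and 7048. The part of endothelial RNA in the nHSPC levels was not tested. With the doublet-marked cells left out, or with arterial-side haemogenic EC as the reference, cx43 and gja5a stayed called and the low counts of cx39.4 and gja5b no longer passed the count filter.

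After thinning, a cx43 UMI was found in 11.01%, 8.54%, 8.37% and 9.48% of nHSPCs (unthinned 29.1%, 19.3%, 20.1% and 14.1%) and a gja5a UMI in 5.199%, 4.57%, 4.93% and 6.54% (unthinned 15.7%, 14.8%, 14.0% and 10.6%), with 4 to 35 cells left out per library. These lie above the neural shares given above. Neural cells also had less of the endothelial list, at 254 CPM over all libraries against 689 CPM in nHSPCs. The part of endothelial RNA in these shares was not tested. In haemogenic EC the thinned gja5a share was 15.1%, 14.7%, 17.2% and 20.9% (unthinned 38.1%, 33.3%, 33.3% and 41.6%), with 3 to 15 cells left out. Of the nHSPCs with a cx43 UMI, 19.4%, 7.14%, 17.6% and 17.2% also had a gja5a UMI, against 3.44%, 4.33%, 3.76% and 5.42% of those without, although only 7, 2, 6 and 5 cells had both.

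Cycling EC had a different balance of connexins from EC without cycle transcripts. EC with at least 2 of 6 cycle markers were set against EC with none, and of 10 connexins tested 1 was called higher and 2 lower, where 7.39% of all 16870 genes were called higher and 2.94% lower. cx30.3 stood at 24.1, 9.31, 19.0 and 22.6 CPM in cycling and at 79.7, 29.9, 52.2 and 66.1 CPM in non-cycling EC (3.06-fold lower, log2 −1.61 ± 0.06 SE, adjusted p = 8.3e-10 by edgeR). cx43.4 had 4.29, 5.65, 6.28 and 5.46 CPM against 1.57, 1.66, 1.71 and 2.12 CPM (3.04-fold higher, adjusted p = 9.9e-07 by edgeR). cx43 was not called, at 142, 152, 145 and 164 CPM against 175, 185, 173 and 175 CPM.

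The venous marker list moved with this contrast, at 2594 to 4332 CPM in cycling against 5071 to 7112 CPM in non-cycling EC, and the arterial list the other way, at 3055 to 4128 against 2069 to 2480 CPM. Cycling cells were also deeper, with medians of 7661.5 to 13342.5 UMIs against 5327 to 9744. The contrast was therefore repeated within each side, a step added after seeing the data. Within venous and lymphatic EC cx30.3 was still lower in cycling cells (log2 −1.06 ± 0.06 SE) and cx43.4 was higher (log2 2.23 ± 0.29 SE, adjusted p = 1.0e-05), both called by edgeR. Within arterial EC neither of them was called, although both estimates kept their direction. cx43.4 was higher by log2 0.87 ± 0.16 SE (adjusted p = 0.00023 by edgeR), short of 2-fold, and cx30.3 was at log2 −0.375 ± 0.16 SE (adjusted p = 0.063 by edgeR). The gene called there was gja5b, at 4.20, 6.74, 3.43 and 4.39 CPM in cycling against 11.4, 10.3, 8.44 and 7.90 CPM in non-cycling arterial EC (log2 −1.09 ± 0.16 SE, adjusted p = 2.6e-05 by edgeR). For cx43 the estimates had opposite signs, both under 2-fold. In cycling cells it was higher within arterial EC (log2 0.23 ± 0.05 SE, adjusted p = 0.0011 by edgeR). Within venous and lymphatic EC it was lower (log2 −0.24 ± 0.04 SE, adjusted p = 0.00019 by edgeR). Whether the arterial and venous effects differ was not tested.

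Erythroid cells, the red blood cell lineage, had low levels of the endothelial connexins. Of 12 tested against EC 8 were called lower and 1 higher, where 26.3% of all 17711 genes were called lower and 16.3% higher. Of the 12, 8 passed the count filter through EC only, cx39.4, gja5b, cx55.5 and gja3 among them, and 5 of the 8 lower calls came from these. Such a filter can favour a direction without fixing it. gja8a, also let in through EC only, had a higher estimate in erythroid cells (log2 1.16) and was not called. Of the other 4, 3 were called lower and 1 higher. Among those called lower, gja5a reached the minimum in 1 erythroid sum and cx30.3 in 3, so the filter could favour their direction too. The median over all genes was −0.32 on the log2 scale. cx43 stood at 21.5, 9.99, 10.0 and 23.2 CPM (7.08-fold below EC, log2 −2.82 ± 0.16 SE, adjusted p = 7.7e-65 by edgeR) and gja5a at 5.21, 1.82, 2.72 and 2.86 CPM (log2 −1.96 ± 0.27 SE). In this contrast the spread used by edgeR was in effect pooled over genes. The SE and p-values therefore do not reflect a gene's own spread between libraries, such as that of cx43. cx39.4, let in through EC only, had 2.60, 0, 0.543 and 0.318 CPM (log2 −3.60 ± 0.39 SE), and its call is not read as support. gja5b had 0 UMIs in all 4 libraries, which at a floor of 3 counts puts its CPM at no more than 0.595, 0.727, 0.317 and 0.429 of that in EC. The calls for cx55.5 and gja3 rested on 1 and 3 erythroid UMIs.

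The order of the libraries for cx30.3 in erythroid cells, 11.7, 0.908, 5.16 and 7.31 CPM, was that seen in venous EC. The venous marker list stood at 690, 432, 488 and 783 CPM in erythroid cells and the endothelial list at 845, 565, 677 and 1381 CPM, and the part of endothelial RNA in these levels was not tested. cx43.4, called higher (log2 1.25 ± 0.34 SE, adjusted p = 0.00065 by edgeR), stood at 4.56, 4.54, 5.70 and 2.86 CPM against 2.29, 2.69, 2.997 and 2.996 CPM in EC, above EC in 3 of 4 libraries.

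Myeloid cells had connexins of their own. Against EC 2 of 13 tested were called higher and 8 lower, where 18.1% of all 18009 genes were called higher and 28.9% lower. Of the 13, 7 passed the count filter through EC only, and 5 of these were called lower. Among the other 6 tested, 2 were called higher and 3 lower. gja5a reached the minimum in 1 myeloid sum, cx30.3 in 3 myeloid sums and cx32.2 in 3 EC sums, so the filter could favour their direction too. The median over all genes was −0.33 on the log2 scale. cx32.2 stood at 44.5, 64.4, 44.4 and 44.7 CPM in myeloid cells and at 0.184, 0.115, 0.214 and 0.445 CPM in EC, 313-fold apart (log2 8.29 ± 0.26 SE, adjusted p = 5.0e-11 by edgeR). cx27.5, whose RefSeq symbol gjb1a places it with mammalian Gjb1, stood at 18.2, 8.49, 8.44 and 10.3 CPM against 0.219, 0.242, 0.2498 and 0.232 CPM in EC (68.1-fold, log2 6.09 ± 0.30 SE, adjusted p = 2.9e-09 by edgeR). Neither gene overlapped EC in any library. cx43, at 9.50, 14.6, 12.3 and 11.8 CPM, was 9.96-fold below EC (adjusted p = 7.6e-11 by edgeR). The genes lower included cx43, cx39.4, gja5a, gja5b, gja3, cx30.3 and cx55.5, and of these cx39.4, gja5b, gja3 and cx55.5 passed the filter through EC only. The endothelial list stood at 207 to 775 CPM in the myeloid class.

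The 2 myeloid connexins lay in different cells. In a division added after seeing the data, myeloid cells were split by whether the neutrophil genes lyz, mpx and npsn or the macrophage gene mfap4 gave more UMIs. In the 25, 44, 52 and 38 cells led by mfap4, cx32.2 stood at 395.5, 245.0, 293.3 and 376.6 CPM. In the 201, 117, 316 and 342 cells led by the neutrophil genes it stood at 0, 1.92, 0.221 and 1.44 CPM. cx27.5 had the opposite distribution, with 20.5, 12.3, 10.1 and 11.8 CPM in the neutrophil-led and 5.39, 0, 0 and 0 CPM in the mfap4-led cells, the latter from 3 UMIs. cx28.1, a low member, was also found in the mfap4-led cells, at 8.71 to 10.95 CPM from 4 to 10 UMIs per library. cx43 was at 37.8, 48.8, 31.6 and 41.4 CPM in the mfap4-led and at 6.10, 3.10, 8.20 and 6.90 CPM in the neutrophil-led cells. The endothelial list stood at 36 to 391 CPM in the mfap4-led cells.

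After thinning, a cx32.2 UMI was found in 60.0%, 48.8%, 48.9% and 70.3% of the mfap4-led cells (unthinned 88.0%, 88.6%, 76.9% and 86.8%), with 0 to 5 cells left out, and in 0.0404% to 0.128% of EC. No thinned neural cell had one. cx27.5 was found in 6.36%, 1.80%, 2% and 4.78% of thinned neutrophil-led cells (unthinned 15.4%, 15.4%, 8.23% and 7.60%) with 6 to 70 cells left out, and in 0% to 0.820% of thinned neural cells. Of 1045 thinned myeloid cells 87 had cx32.2 alone, 32 had cx27.5 alone and 0 had both. Without thinning 140, 100 and 2 of 1177 did.

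**Figure D4:**
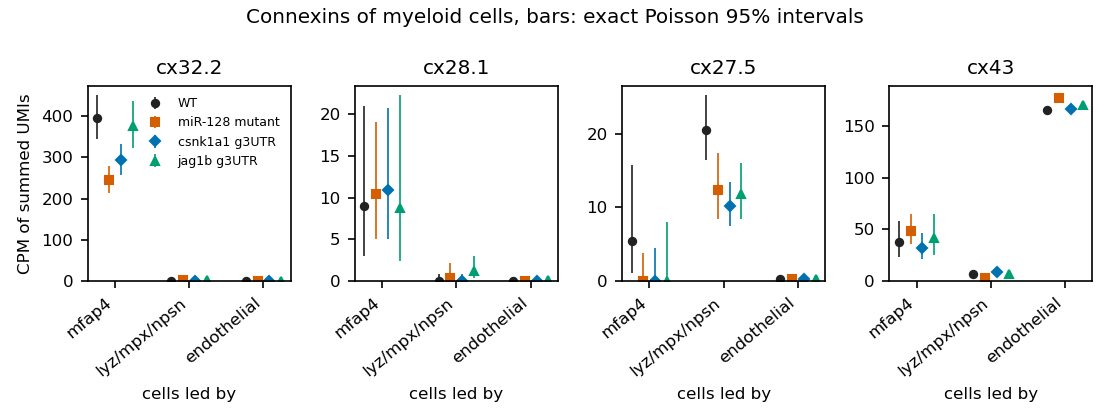
CPM (vertical axes, linear, each with its own range) of cx32.2, cx28.1, cx27.5 and cx43 in myeloid cells led by mfap4, in those led by lyz, mpx and npsn, and in EC, with 1 point per library and bars for 95% exact Poisson intervals of counting error. The cx32.2 points of the mfap4-led cells lie between 245.0 and 395.5 CPM and those of the neutrophil-led cells at or under 1.92 CPM, whereas cx27.5 is higher in the neutrophil-led cells.

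In most classes outside vessels and blood, cx43.4 was the main connexin. Its zebrafish product is needed in Kupffer's vesicle for left-right patterning. It stood at 391.1, 460.7, 392.3 and 376.5 CPM in notochord, 278.5, 288.5, 293.6 and 189.2 CPM in neural cells, 159.1, 173.3, 175.9 and 176.4 CPM in mesenchyme, and 83.1, 85.8, 88.9 and 65.6 CPM in epidermis. This order of the 4 tissues was the same in every library. In neural crest and pigment cells, of which there were 17 to 22 per library, it was at 56.5, 36.4, 47.8 and 34.1 CPM, and in muscle at 9.08 to 16.3 CPM. Mesenchyme also held cx43, at 60.3, 53.3, 57.7 and 54.6 CPM, where the endothelial list gave 470 to 818 CPM.

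Skeletal muscle was marked by GJD4 and cx39.9. GJD4, whose mammalian counterpart is a skeletal muscle connexin, stood at 49.8, 56.9, 39.97 and 44.7 CPM there and at 1.69, 1.007, 0.678 and 3.32 CPM in EC, and it was 6.75-fold higher outside EC than in EC (adjusted p = 6.2e-05 by edgeR). cx39.9, the zebrafish gja2, stood at 23.6, 12.8, 40.6 and 59.9 CPM in muscle and at 0.035, 0, 0.0178 and 0.155 CPM in EC (log2 −7.30 ± 0.42 SE for EC against the outside cells). GJD4 levels were alike in the 4 muscle samples, whereas those of cx39.9 spanned more than a 4-fold range, with median depths of 4334, 13032, 15561.5 and 8107 UMIs per cell in 65 to 183 cells. Of 461 muscle cells 40 had a UMI of both genes, 52 of GJD4 alone and 85 of cx39.9 alone. After thinning, which left 324 cells, 2 had both, 27 had GJD4 alone and 25 had cx39.9 alone. Among thinned neural cells GJD4 was found in 0% to 0.826% and cx39.9 in none. gja5a also gave 24.5, 9.30, 18.2 and 8.20 CPM in muscle, beside an endothelial list of 248 to 1152 CPM. Of the connexin UMIs in muscle gja5a gave a median of 12.0% and cx43 of 5.08%, whereas in EC they gave 7.05% and 63.7%. The part of endothelial RNA in the muscle level of gja5a was not tested.

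Epidermis held cx44.2 and cx34.4, and RefSeq gives the latter as gjb10, of a connexin group that in mammals serves the epidermis. cx44.2 stood at 29.1, 23.6, 24.6 and 30.2 CPM and cx34.4 at 18.8, 10.1, 29.3 and 21.0 CPM. In EC cx34.4 was at 0.289, 0.204, 0.0714 and 0.483 CPM and cx44.2 at 0.035, 0.0127, 0.0357 and 0.0966 CPM. EC were lower than the outside cells by log2 −6.41 ± 0.41 SE for cx44.2 and −3.62 ± 0.54 SE for cx34.4, each called by edgeR. Of these genes cx44.2 passed the count filter through the outside cells only. cx30.3, described above for venous EC, also had a mean over libraries of 19.8 CPM in epidermis. cx55.5 was uneven in epidermis, at 0, 1.68, 2.84 and 11.8 CPM.

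Neural cells held gjd1a, of the connexin group that forms electrical synapses between neurons, at 21.9, 33.8, 31.4 and 25.1 CPM against 0.0437, 0.0382, 0.0892 and 0.155 CPM in EC (log2 −6.00 ± 0.45 SE for EC against the outside cells). gjd2b, of the same group, came from 1 library, with 2, 1, 29 and 3 neural UMIs, or 1.04, 0.940, 30.305 and 3.59 CPM. Its call against EC (log2 −3.82 ± 0.87 SE, adjusted p = 0.0045 by edgeR) carries that spread in its error.

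A further 7 members, all low, were gja8a, cx52.9, cx30.9, cx28.8, cx28.1, cx40.8 and cx28.6. Their mean levels in EC lay between 0.044 and 0.205 CPM. Only gja8a passed the count filter in any of the 8 contrasts, and it was not called. gja8a, a lens connexin in mammals, was highest in haemogenic EC and nHSPCs, at 0.810 to 1.83 and 0.965 to 1.43 CPM. cx28.8 reached 1.31 to 5.67 CPM in epidermis.

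Proteins that work with connexins, and related channels, were read from a list of 15 genes. These were the pannexins panx1a, panx1b, panx2 and panx3, the junction scaffolds tjp1a, tjp1b, tjp2a, tjp2b and tjp3, the caveolar gene cav1, the actin-binding gene dbn1, the casein kinases csnk1da, csnk1db and csnk1e, and nedd4a. In EC against the outside cells 5 of 13 tested were higher, namely tjp1a (log2 2.67), dbn1 (2.16), panx1b (2.02), tjp2b (1.46) and cav1 (1.16), and tjp3 (−3.78) and tjp2a (−1.99) were lower, where 17.6% of all genes were called higher and 22.3% lower. Arterial EC had more cav1 (log2 1.19) and less csnk1e (−2.01) and tjp2a (−1.05) than venous EC, 3 of 13 tested, where 9.11% of all genes were called higher and 9.57% lower. In nHSPCs 5 of 9 were lower than in haemogenic EC and 0 higher, where 21.8% and 18.2% of all genes were. The log2 differences were −5.74 for cav1, −4.56 for tjp1a, −2.94 for tjp1b, −2.47 for dbn1 and −2.34 for tjp2b. In erythroid cells 8 of 13 were lower than in EC and 0 higher, where 26.3% and 16.3% of all genes were. In myeloid cells 7 of 13 were lower and 0 higher, where 28.9% and 18.1% of all genes were. Tip against arterial EC gave 1 call of 12 tested (csnk1e, log2 1.11), where 1.87% of all genes were called higher and 5.2% lower. Haemogenic against arterial EC gave 0 of 12, where 2.98% of all genes were called higher and 3.41% lower. Cycling against non-cycling EC gave 0 of 13, where 7.39% were called higher and 2.94% lower. Which class brought a partner gene past the count filter was not examined, so the filter could favour the direction of some of these calls.

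The genotypes could be compared only as single libraries, so no test was possible. Ratios of CPM in EC are given with exact 95% intervals that cover counting error only. WT and the miR-128 mutant shared a Cell Ranger version and both g3UTR libraries another, so that version and library pair cannot be told apart. Members with at least 20 UMIs over both libraries were counted. Of 17 in the miR-128 mutant 3 differed from WT by at least 1.5-fold, where 18.5% of all genes did. Of 16 in the csnk1a1 g3UTR library 3 did, where 25.3% of all genes did, and of 18 in the jag1b g3UTR library 4 did, where 45.1% of all genes did. Between the csnk1a1 g3UTR and jag1b g3UTR libraries 5 of 15 did, where 26.3% of all genes did. The median ratio of all genes in EC was 0.998, 1.115 and 1.285 for the 3 libraries against WT. Scaled by CPM, 10, 8 and 13 of the members were above WT, and scaled by the median of ratios 10, 4 and 6 were.

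cx30.3 was lower than WT in all 3 other libraries. Its level in EC was 65.8 CPM in WT and 25.7, 43.44 and 53.7 CPM in the others, with ratios of 0.390 (0.371 to 0.410), 0.661 (0.631 to 0.691) and 0.816 (0.781 to 0.852). Scaled by the median of ratios they were 0.39, 0.58 and 0.61. In venous and lymphatic EC the ratios were 0.398, 0.679 and 0.789, and in arterial EC 0.438, 0.706 and 1.004, so the miR-128 mutant was lowest on both sides of the vasculature. In EC as a whole 2.55% of all genes counted had a lower ratio in that library. Without a second library per genotype, differences in preparation and in genotype cannot be told apart here.

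GJD4 had ratios of 0.596 (0.453 to 0.779), 0.402 (0.276 to 0.571) and 1.97 (1.59 to 2.43) in EC. The muscle marker list in EC, at 62.4, 85.9, 47.7 and 121 CPM, was likewise highest in the jag1b g3UTR and lowest in the csnk1a1 g3UTR library. In the miR-128 mutant it was above WT, whereas GJD4 was below. The part of muscle RNA in the GJD4 values was not tested. The other members past 1.5-fold rested on few UMIs. They were cx32.2, at 0.625 (0.252 to 1.42) in the miR-128 mutant and 2.42 (1.28 to 4.598) in the jag1b g3UTR library, cx34.4, at 0.247 (0.0636 to 0.695) in the csnk1a1 g3UTR and 1.67 (0.955 to 2.90) in the jag1b g3UTR library, and cx28.8, at 3.32 (1.39 to 8.25) in the jag1b g3UTR library. Between the csnk1a1 g3UTR and the jag1b g3UTR library the 5 were GJD4 (0.204), cx34.4 (0.148), cx28.8 (0.431), cx32.2 (0.482) and cx55.5 (0.613).

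cx43, gja5a and cx39.4 stayed within 1.5-fold of WT in EC with either scaling, and gja5b did not. cx43 had ratios of 1.07, 1.007 and 1.03, which became 1.07, 0.88 and 0.77 with the median of ratios, so its direction in the g3UTR libraries depends on the scaling. gja5a had 1.17, 1.33 and 1.39 (1.17, 1.16 and 1.04 with the median of ratios), and cx39.4 had 1.29, 1.05 and 1.19 (1.29, 0.92 and 0.89). gja5b had 1.14, 0.783 and 0.678, which became 1.14, 0.683 and 0.506 with the median of ratios. In arterial EC alone gja5a had ratios of 1.12, 1.26 and 1.25 and gja5b 1.04, 0.646 (0.505 to 0.820) and 0.721 (0.559 to 0.922). The gja5a ratio in venous and lymphatic EC reached 3.14 (2.47 to 4.01) in the jag1b g3UTR library, from levels of 1.8 and 5.5 CPM. In myeloid cells cx32.2 had ratios of 1.45, 0.998 and 1.004 and cx27.5 of 0.466, 0.464 and 0.565. The mfap4-led cells were 25 of 235 myeloid cells in WT and 44 of 175 in the miR-128 mutant. Within the mfap4-led cells cx32.2 was lower in the miR-128 mutant than in WT, by the levels given above. The part of this cell mix in the myeloid ratios was not tested.

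**Figure D5:**
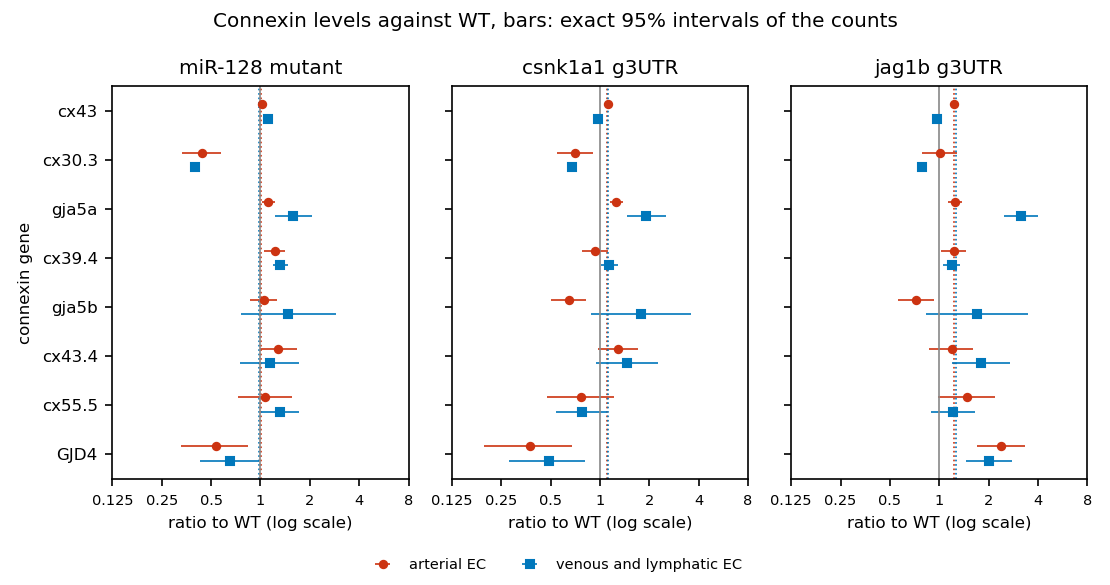
Ratio of CPM to the WT library (horizontal axes, log scale) for the 8 connexins with most endothelial UMIs, with 1 panel for each of the other libraries, circles for arterial EC, squares for venous and lymphatic EC and bars for exact 95% intervals of counting error. The solid grey line marks a ratio of 1 and the dotted lines the median ratio of all genes in the class of that colour. The cx30.3 points lie at or below 1.004, with the miR-128 mutant lowest, at 0.438 in arterial and 0.398 in venous and lymphatic EC.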

How the data were processed

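The data were UMI counts per gene and cell barcode from 4 Chromium 3′ libraries, as deposited by the authors in filtered Cell Ranger matrices. The file headers name Cell Ranger 5.0.0 for WT and the miR-128 mutant and 6.0.1 for both g3UTR libraries. The authors counted on a zebrafish annotation with corrected 3′ ends, and its genome build is not given in the sources used here, so no coordinates are printed. The study removed barcodes under 200 genes, genes in under 3 cells and barcodes above 35000 UMIs as doublets. These limits leave 12626, 9604, 9293 and 11428 of 12918, 9788, 9380 and 11482 barcodes. Here a mitochondrial share above 20% was an added ground for removal. Total UMIs per library were 144258953, 99846696, 80140720 and 69980329. No other doublets were removed in the reported values. Scrublet (scanpy 1.11.5) marked 1191, 683, 655 and 983 cells, which were left out in 1 alternative.

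Cells took the class with the highest mean marker score among 11 classes, and EC were then divided by arterial, venous, tip and haemogenic markers. UMIs were summed per class and library. Class contrasts were fitted in edgeR 4.0.16 (R 4.3.3) with TMM scaling, a filter on low counts (at least 10 UMIs in at least 4 sums) and the library as a block, on the whole gene table, and the fit was tested on simulated data. Classes of 1 library share its preparation, and p-values rest on the spread between 4 libraries of different genotype, which edgeR shares between genes. For erythroid cells against EC that spread was in effect pooled over genes. Ratios between libraries, CPM and shares of cells carry exact conditional, Poisson and Clopper-Pearson intervals at 95% (scipy 1.17.1, Python 3.11.15), which cover counting error only. Alternatives were DESeq2 1.42.0, median-of-ratios scaling, no filter, no block, clusters in place of gates, Scrublet calls left out, each library left out, a 2-fold limit and means over cells.

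The members and gene lists were chosen with earlier results of these data known. Values in every library are given for a member among the 8 with most UMIs in EC, or called in a class contrast, or with a mean of 20 CPM in any class, and the others are given by range. Other genes were named only from the partner list and the cell type markers. No sequences are shown. The values of 1 member are not reported here, although the counts of genes include it.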

Additional observations from a re-analysis of the deposited data

Results flagged for a closer look

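In arterial EC the jag1b g3UTR library had more cx43 than WT, with a ratio of 1.22 (1.16 to 1.29), and in venous and lymphatic EC less, with a ratio of 0.961 (0.93 to 0.99). These intervals cover counting error only, and the opposite directions in the 2 vascular classes caught attention. With 1 library per group the difference between them was not tested. Scaled by the median of ratios both ratios were below 1, at 0.95 and 0.73.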

How the results depend on the processing

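No paired analysis was possible because each group is 1 library. This holds for the genotypes, whereas the class contrasts were already taken within libraries. Without the filter on low counts, calls among connexins rose from 4 to 7 in arterial against venous EC and from 4 to 7 in nHSPCs against haemogenic EC. Over all genes the arterial contrast went from 1525 higher and 1602 lower of 16737 to 1816 and 2064 of 28970. The nHSPC contrast went from 1980 and 2370 of 10851 to 3126 and 3027 of 25036. Without the library block, calls among connexins fell from 3 to 1 in tip EC and from 1 to 0 in haemogenic EC. Calls over all genes fell as well, from 265 higher and 735 lower to 170 and 438 of 14146 in tip EC. In haemogenic EC they fell from 416 and 475 to 219 and 256 of 13939. Clusters in place of gates left 1 connexin call in tip EC, with 800 higher and 949 lower of all 12868 genes. They gave no value for haemogenic EC, since no cluster averaged 1 haemogenic marker. With Scrublet-marked cells left out, haemogenic EC had 0 connexin calls and nHSPCs 2. Over all genes there were 489 higher and 657 lower of 13676, and 1993 and 2280 of 10515. With arterial-side haemogenic EC, nHSPCs had 2 connexin calls, with 1908 higher and 2178 lower of all 10567 genes. Against arterial EC, cx30.3 reversed to −1.11. Within arterial EC the cycling contrast had 1 connexin call instead of 3. Over all genes it had 810 higher and 293 lower of 13170, instead of 1246 and 496 of 16870. When each library was left out in turn, calls ranged from 14 to 15 (EC against outside), 4 to 5 (arterial), 2 to 3 (tip), 0 to 1 (haemogenic), 4 to 5 (nHSPC), 7 to 8 (erythroid, 9 with all libraries), 9 to 10 (myeloid) and 3 to 3 (cycling). A 2-fold limit left 1 of 3 members in the miR-128 mutant and 2 of 4 in the jag1b g3UTR library. In the latter the median of ratios gave 7 and means over cells 10. The shares of all genes under these settings are not given, so these counts are not read as results about connexins. Means over cells reversed gjd2b (1.54) for jag1b g3UTR against WT, and cx43.4 (0.662) and gja8a (0.627) for csnk1a1 g3UTR against jag1b g3UTR. Apart from constructions that change cells or filters, the cause of these changes was not tested. The arterial against venous calls held in 10 of 10 alternatives, with log2 differences of 3.58 to 4.08 for gja5a, 3.92 to 4.82 for gja5b, −4.05 to −3.53 for cx30.3 and 2.16 to 2.77 for cx43.4. Of single-gene values in the class contrasts, connexins and partner genes together, 1756 kept their call status, 20 became stronger, 31 weaker and 1 reversed. A value counted as reversed only where its sign turned and the gene was called in either fit. Genes that changed sign without a call, such as cx43 in cycling arterial EC, are therefore among the 1756. Of single-gene library ratios 522 kept within counting error, 51 moved and 3 reversed. Shares of cells moved in 37 of 40 values without thinning. Depth limits members with few UMIs, such as gja8a and cx28.6.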
